A study of Mus musculus with 2 samples.

Results

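The 9 genes described here, all known from perivascular macrophages, were followed through 1 single-cell RNA library of mouse lung monocytes and macrophages: Folr2, Lyve1, Cd163, Cbr2, Pf4, Selenop, Fcna, F13a1 and Ednrb. They were picked by symbol, as 9 of the 22597 genes in the count matrix, and all 9 were detected in both genotypes. The cells came from lungs of IM-DTR hosts (CD45.1+CD45.2+), in which diphtheria toxin depletes interstitial macrophages, that had been irradiated and rebuilt with donor bone marrow that was CD45.1-CD45.2+. Donor marrow was Tgfbr2 fl/fl in the control group and LyzM-Cre Tgfbr2 fl/fl in the Tgfbr2-KO group, so the floxed allele of the TGF-beta receptor 2 gene was shared by both and Cre marked only the second. Every mouse received 50 ng of toxin, and lungs were taken 10 days later. Donor cells that were Ly6G-, SiglecF-, CD11b+, CD64+ and low in side scatter were sorted, and the cells of 5 mice per genotype were pooled and tagged with hashtag B0301 (control) or B0303 (Tgfbr2-KO). LyzM-Cre is active in monocytes, macrophages and neutrophils rather than in interstitial macrophages alone, and counts from transcript 3′ ends do not measure the deletion. The study asked how lung monocytes and interstitial macrophages of the 2 genotypes differ after the niche has been emptied.

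Interstitial macrophages of the lung are commonly divided by the mannose receptor CD206, the product of Mrc1, into CD206+ cells that lie along vessels and airways and CD206- cells that present antigen near nerves and alveoli. The CD206+ cells are known for receptors that take up ligands and debris and for secreted proteins of the clotting, complement and transport systems. TGF-beta is a known regulator of macrophage maturation in several tissues. Of the 9 genes, Folr2 encodes folate receptor beta, Lyve1 a hyaluronan receptor also made by lymphatic endothelium, and Cd163 the receptor for haptoglobin-haemoglobin complexes. Cbr2 encodes a carbonyl reductase that is also abundant in airway epithelium. Pf4 encodes the chemokine CXCL4, Selenop the selenium carrier selenoprotein P, Fcna the lectin ficolin A, F13a1 the A chain of clotting factor XIII, and Ednrb an endothelin receptor.

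The letters TGCTGA, to which MAF factors are known to bind, lay near a RefSeq start in 4 of the 9 genes (GRCm38.p6), and the upstream windows that held one are shown here because the genes share cells, as described further on. The search covered 250 bases before to 50 bases after each start, on both strands, in 12 windows of 8 genes (all but Lyve1). They occurred in 5 of these windows, in Folr2, Fcna, Cbr2 and Ednrb, and in 19.5% of 32851 windows of all genes. Fcna had it at 107 and again at 90 bases before the start. Folr2 had it 220 bases before its distal start and 19 bases before its proximal start, Ednrb 242 bases before the start, and Cbr2 42 bases after it on the opposite strand. CAGACA, a SMAD element, occurred in none of the members' windows and in 21.0% of all windows, and the STAT element TTCNNNGAA in none and in 8.30%. The interferon response element occurred in the windows of 2 overlapping Selenop starts and in 3.44% of all windows. A match is only a stretch of letters. Each line gives the 250 bases before a start, 5′ to 3′ on the gene's strand, with TGCTGA in capitals. Cd163 had no match, and is added because its level differed most between the pools in Mrc1-positive cells.
Folr2, distal start (chr7:101857191-101857440, minus strand): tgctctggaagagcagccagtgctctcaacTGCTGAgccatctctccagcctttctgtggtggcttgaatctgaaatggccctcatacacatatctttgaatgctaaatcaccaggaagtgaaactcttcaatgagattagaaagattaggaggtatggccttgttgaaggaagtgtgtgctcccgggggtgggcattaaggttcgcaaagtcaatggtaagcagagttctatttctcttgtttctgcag
Folr2, proximal start (chr7:101845332-101845581, minus strand): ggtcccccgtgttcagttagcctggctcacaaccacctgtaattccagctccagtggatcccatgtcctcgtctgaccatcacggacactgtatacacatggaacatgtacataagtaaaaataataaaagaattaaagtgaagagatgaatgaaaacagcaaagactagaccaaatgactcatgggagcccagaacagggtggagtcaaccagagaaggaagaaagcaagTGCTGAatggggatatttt
Fcna (chr2:25627975-25628224, minus strand): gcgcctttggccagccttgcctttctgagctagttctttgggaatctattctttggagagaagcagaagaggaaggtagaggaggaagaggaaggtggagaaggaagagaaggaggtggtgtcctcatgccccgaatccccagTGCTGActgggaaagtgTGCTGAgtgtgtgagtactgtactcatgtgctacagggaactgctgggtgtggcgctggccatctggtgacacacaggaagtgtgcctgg
Ednrb (chr14:103843702-103843951, minus strand): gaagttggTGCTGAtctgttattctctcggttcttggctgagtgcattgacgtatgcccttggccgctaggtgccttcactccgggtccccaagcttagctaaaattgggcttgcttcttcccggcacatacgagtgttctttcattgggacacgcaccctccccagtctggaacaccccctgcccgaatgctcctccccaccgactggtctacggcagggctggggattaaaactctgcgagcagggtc
Cd163 (chr6:124304401-124304650, plus strand): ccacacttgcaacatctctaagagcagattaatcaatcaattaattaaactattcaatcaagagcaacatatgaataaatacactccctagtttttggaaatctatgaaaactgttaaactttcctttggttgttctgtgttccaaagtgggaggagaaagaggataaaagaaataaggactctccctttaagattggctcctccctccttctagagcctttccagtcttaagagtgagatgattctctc

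The genes lie on 8 chromosomes of that build. Folr2 (ENSMUSG00000032725) and Lyve1 (ENSMUSG00000030787) share chromosome 7, at chr7:101839988-101857190 and chr7:110850607-110862953. Cd163 (ENSMUSG00000008845) lies at chr6:124304636-124330529, Cbr2 (ENSMUSG00000025150) at chr11:120729485-120732025 and Pf4 (ENSMUSG00000029373) at chr5:90772435-90773383. Selenop (ENSMUSG00000064373) lies at chr15:3270767-3280510, Fcna (ENSMUSG00000026938) at chr2:25624665-25635440, F13a1 (ENSMUSG00000039109) at chr13:36867178-37050244 and Ednrb (ENSMUSG00000022122) at chr14:103814615-103844508. UMIs were counted per gene, so no value belongs to 1 exon.

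The control pool gave 1896 usable cells and 16298452 unique molecular identifiers (UMIs). The Tgfbr2-KO pool gave 2674 cells and 30729204 UMIs. Median depth was 7785 UMIs per control cell and 10277.5 per Tgfbr2-KO cell, so shares of cells with a gene are given after thinning every cell to 3000 UMIs. There was 1 pool per genotype. No test was therefore made, and each interval is a 95% interval of counting error that leaves out differences between mice. Intervals of levels and ratios treat UMIs as independent, so they also leave out the spread between cells. In the control pool, the 10 cells with most UMIs of the gene held 28.8% of Lyve1 and 36.8% of Fcna UMIs. In the Tgfbr2-KO pool they held 23.5% and 23.3%. Levels are UMIs per 1000000 UMIs (UPM) of the cells concerned, and since 3′ capture differs between genes they are compared between cells, not between genes. Markers of the sorted cells were present: the 10 core genes of interstitial macrophages, C1qa, C1qb and C1qc among them, summed to 26635 and 20779 UPM in Mrc1-positive cells, while 10 neutrophil genes summed to 53.0 and 94.3 UPM and 9 epithelial genes to 75.8 and 64.3 UPM. Clusters were made without the 9 genes and without Mrc1, and are called by number and leading genes.

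All 9 genes were concentrated in cells with Mrc1. At least 1 Mrc1 UMI was found in 1585 control cells, 83.6% of the pool (81.9 to 85.2), and in 1957 Tgfbr2-KO cells, 73.2% (71.5 to 74.9), or 67.1% and 56.4% after thinning. These Mrc1-positive cells held between 92.1% and 99.6% of the UMIs of each of the 9 genes in either pool. Folr2 stood at 152 UPM (146 to 158) in Mrc1-positive and 8.02 UPM (4.67 to 12.9) in Mrc1-negative control cells, an 18.9-fold difference (11.8 to 32.6). In the Tgfbr2-KO pool it stood at 191 UPM (185 to 197) and 3.19 UPM (2.10 to 4.64), 59.8-fold apart (41.1 to 90.9). The smallest difference was 2.81-fold in the control pool (Selenop, 2.64 to 3.0) and 4.43-fold in the Tgfbr2-KO pool (Cbr2, 3.88 to 5.08). The Cbr2 value rests on 2 Mrc1-negative cells of cluster 14 that held 180 of 237 UMIs; next was Selenop, at 7.07-fold (6.71 to 7.45). The largest was 41.2-fold in the control pool (Lyve1, 11.3 to 341), where the Mrc1-negative cells held only 2 Lyve1 UMIs, and Folr2 in the Tgfbr2-KO pool. All 9 were thus past 1.5-fold. By comparison, 7.96% of 8174 genes with 100 or more UMIs were 1.5-fold higher in Mrc1-positive cells of the control pool, and 13.1% of 9512 in the Tgfbr2-KO pool. Among genes that also reached 100 UPM these shares were 7.28% and 14.6%. Ranked by this ratio, the members ran from rank 3 (Lyve1) to rank 81 (Selenop) in the control pool and from rank 5 (Folr2) to rank 144 (Cbr2) in the Tgfbr2-KO pool, where Lyve1 had rank 47. Cells with and without Mrc1 differed in depth in opposite directions in the pools, with medians of 8114 and 6459 UMIs in control and 10017 and 11233 in Tgfbr2-KO cells.

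**Figure D1:**
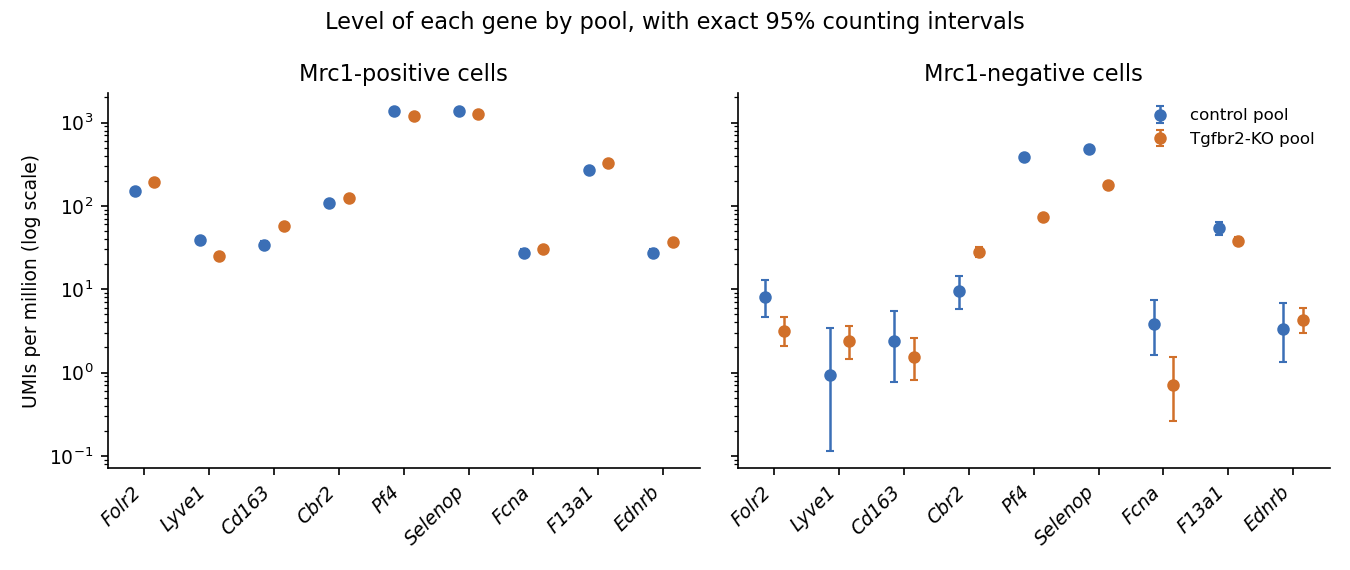
UMIs per 1000000 (UPM) on a log axis for each of the 9 genes, in Mrc1-positive cells (left) and Mrc1-negative cells (right). Points are sums over the cells of a pool, blue for control and orange for Tgfbr2-KO, and bars are exact 95% counting intervals; every gene is lower on the right, and Pf4 and Selenop are the ones there that reach 100 UPM in a pool.

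The members' levels also differed with the amount of Mrc1. Cells were grouped by their Mrc1 UMIs after thinning to 3000 UMIs, and levels are from all UMIs of the grouped cells. Folr2 stood at 19.9, 65.0, 105, 184 and 475 UPM in control cells with 0, 1, 2, 3 to 5, and 6 or more Mrc1 UMIs. In Tgfbr2-KO cells the same bins stood at 12.02, 60.5, 136, 244 and 612 UPM. Each gene was highest in the last bin in both pools, although not every step went up, as for Lyve1 in control cells at 27.4 and 23.6 UPM with 2 and with 3 to 5 Mrc1 UMIs. F13a1 went from 42.2 UPM with 0 to 971 UPM with 6 or more Mrc1 UMIs in control cells, and from 36.8 to 1178 UPM in Tgfbr2-KO cells. Ednrb, the endothelin receptor, stood at 147 UPM in the last bin of control cells and at 9.66 UPM with 3 to 5 Mrc1 UMIs. The bins hold 597, 395, 266, 326 and 232 control cells and 1130, 437, 264, 388 and 372 Tgfbr2-KO cells.

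**Figure D2:**
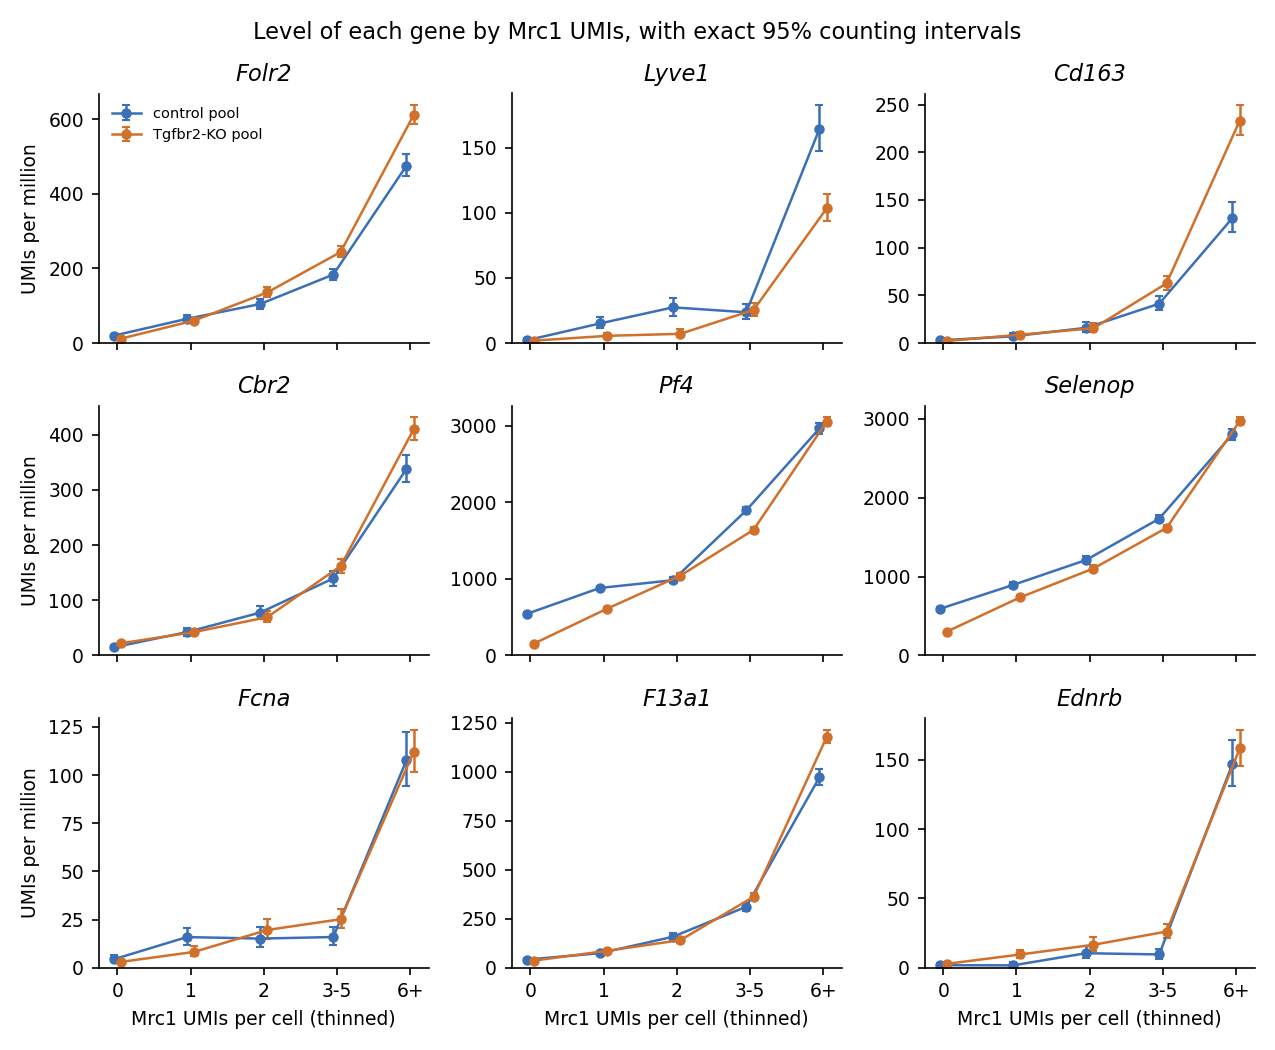
UMIs per 1000000 (UPM) of each gene (y axes start at 0) in cells grouped by their Mrc1 UMIs after thinning to 3000 UMIs (x axis, from 0 to 6 or more). Blue is control, orange is Tgfbr2-KO and bars are exact 95% counting intervals; all 9 genes are highest at 6 or more Mrc1 UMIs, where Cd163 and Folr2 are higher and Lyve1 is lower in the Tgfbr2-KO pool.

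Among the uptake receptors, Lyve1 and Cd163 went opposite ways between the genotypes in Mrc1-positive cells. A difference of 1.5-fold counted as called where a gene had 100 or more UMIs in total and reached 100 UPM in either pool. In Mrc1-positive cells 5 members met this minimum (Folr2, Cbr2, Pf4, Selenop and F13a1), and 0 of them were called higher and 0 lower in the Tgfbr2-KO pool, where 7.95% and 7.24% of 1699 genes were. Over all cells, 0 of the 4 that met it (Folr2, Pf4, Selenop and F13a1) were called, against 11.4% of 1736 genes called higher and 9.27% called lower. The others are given by value.

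Lyve1, the hyaluronan receptor, stood at 38.9 UPM (35.7 to 42.2) in Mrc1-positive control cells and at 25.3 UPM (23.2 to 27.5) in Mrc1-positive Tgfbr2-KO cells, 1.54-fold lower (1.36 to 1.73). Over all cells it stood at 33.9 and 19.0 UPM, 1.79-fold lower (1.59 to 2.01). The thinned share of Mrc1-positive cells with Lyve1 was not lower, at 4.79% (3.78 to 5.98) in control and 5.11% (4.16 to 6.20) in Tgfbr2-KO cells. Without the UPM minimum these levels would be called, as were 5.67% of 9752 and 7.53% of 10237 genes. The size of the difference depended on how cells were weighted: the log2 ratio of -0.62 in Mrc1-positive cells was -1.14 within clusters, -0.02 with every cell thinned to 3000 UMIs and -0.07 without clusters 2 and 8. Within clusters and thinned it was -0.88. Lymphatic endothelium also makes Lyve1, and its markers went both ways. Mrc1-positive cells held 433 Ccl21a UMIs in the control pool and 10 in the Tgfbr2-KO pool, and 29 and 0 of Mmrn1. Of the 9 markers on that list 8 were detected in both pools, and they summed to 345 and 450 UPM. Most of that was Pdpn, called lower at 171 and 46.7 UPM, and Fgl2, called higher at 123 and 387 UPM. Pdpn is also a leading gene of cluster 4 (259 control and 46 Tgfbr2-KO cells), so it did not mark endothelium alone here. Prox1, which defines these cells, had 6 and 3 UMIs. Without cluster 14, where Ccl21a is a leading gene, the log2 ratio of Lyve1 was -0.62.

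Cd163, the haemoglobin scavenger receptor, stood at 34.3 UPM (31.4 to 37.5) in Mrc1-positive control cells and 57.2 UPM (54.1 to 60.4) in Mrc1-positive Tgfbr2-KO cells, 1.67-fold higher (1.499 to 1.85). After thinning, 6.73% of control cells (5.53 to 8.10) and 10.1% of Tgfbr2-KO cells (8.74 to 11.5) had a Cd163 UMI, and unthinned 11.0% and 15.2%. Cells with at most 1 UMI of C1qa, C1qb and C1qc, which are low in macrophage genes and should lack Cd163, showed it in 0 of 94 control cells (up to 3.85%) and 1.23% of 406 Tgfbr2-KO cells. Their median depths were 8899 and 11732.5 UMIs, against 8233 and 10221 in the thinned Mrc1-positive cells. The log2 ratio of Cd163 was 0.74 summed over cells, 0.53 within clusters, 0.995 thinned and 0.14 without cluster 1. Without the UPM minimum Cd163 would be called higher in Mrc1-positive cells, as were 9.46% of genes. Over all cells Cd163 stood at 30.2 and 41.9 UPM, and without cluster 1 that direction turned, at a log2 ratio of -0.15.

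Folr2, the folate receptor, had a ratio between those of the other receptors: 152 and 191 UPM in Mrc1-positive cells, 1.26-fold higher (1.19 to 1.32) in the Tgfbr2-KO pool. Its share after thinning was 18.0% (16.1 to 20.002) in control and 24.2% (22.3 to 26.2) in Tgfbr2-KO cells, against 1.06% and 0.985% in the C1q-low cells, and unthinned 27.1% and 32.5%. Within clusters the interval of its ratio included 1, at 1.04 (0.977 to 1.10). Thinned, the log2 ratio was 0.78, and without clusters 2 and 8 it was 0.82, both past 1.5-fold. The direction was reversed without cluster 1, at -0.06.

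Cbr2, the carbonyl reductase, stood at 108 and 124 UPM in Mrc1-positive cells, a ratio of 1.15 (1.08 to 1.22) that was 0.954 (0.888 to 1.03) within clusters. F13a1, the factor XIII chain, stood at 269 and 323 UPM, a ratio of 1.2 (1.15 to 1.25) that was 0.977 (0.935 to 1.02) within clusters. Fcna, the ficolin, stood at 27.6 and 30.2 UPM (ratio 1.09, 0.965 to 1.24). Ednrb stood at 27.2 and 36.8 UPM (ratio 1.36, 1.2 to 1.53), and at 0.966 (0.858 to 1.09) within clusters. None of these 4 was called. Within clusters their ratios were all below 1, and Fcna, at 0.851 (0.739 to 0.9805), was the one whose interval did not include 1.

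Pf4 and Selenop, the secreted pair with the most UMIs, were slightly lower in the Tgfbr2-KO pool. Pf4 stood at 1376 UPM (1357 to 1395) in Mrc1-positive control cells and 1193 UPM (1179 to 1208) in Mrc1-positive Tgfbr2-KO cells, a ratio of 0.867 (0.852 to 0.884). Selenop stood at 1361 and 1269 UPM, a ratio of 0.932 (0.915 to 0.9496). Within clusters the ratios were 0.844 (0.825 to 0.863) and 0.915 (0.895 to 0.935), lower in 9 of 11 clusters for Pf4 and in 7 of 11 for Selenop, over all cells of the clusters holding 20 or more cells of each pool. Both directions turned when cells were thinned, at log2 ratios of 0.02 and 0.03. Pf4 is also a platelet protein. The 12 platelet markers summed to 25.0 and 46.3 UPM in Mrc1-positive cells, with Gp1bb at 0 in both pools and Itga2b at 11 and 10 UMIs, and their part in the Pf4 and F13a1 values was not tested.

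**Figure D3:**
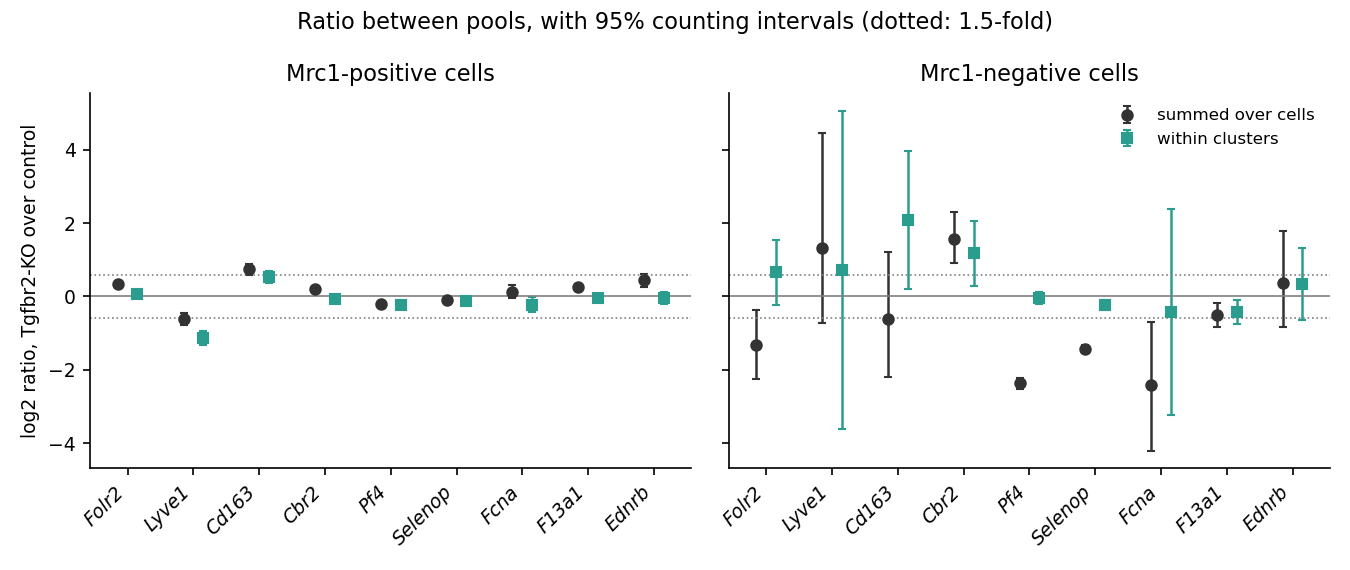
Log2 ratio of the Tgfbr2-KO over the control pool for each gene in Mrc1-positive (left) and Mrc1-negative cells (right), from sums over cells (black circles) and within clusters (green squares), with 95% counting intervals; dotted lines mark 1.5-fold. Lyve1 lies below 0 and Cd163 above 0 in Mrc1-positive cells by both ways of counting, and the low Pf4 ratio of Mrc1-negative cells lies near 0 within clusters.

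The pools differed in which clusters supplied their Mrc1-positive cells, which bears on every sum above. Cluster 0 (led by Kazn, Cxcl13 and Adgrl2) gave 22.6% of the control and 4.29% of the Tgfbr2-KO cells with Mrc1. Cluster 1 (Cd209f, Cd209g and Ccl24) gave 6.81% and 12.9%, and cluster 5 (Mucl1, Retnla and Mgl2) held 41 control and 313 Tgfbr2-KO cells in all. Clusters 2 (Saa3, Ly6i and Upp1) and 8 (Dnase1l3, Ccl8 and Tgfb3), with the highest levels of the interferon-induced genes Cxcl9 and Gbp2, held 14 and 17 control cells but 522 and 411 Tgfbr2-KO cells. How much of each difference between pools comes from this mix was not tested apart from the ratios within clusters.

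Among clusters with 20 or more cells of a pool, most members were highest in cluster 1. The exceptions were Pf4 in the control pool, highest in cluster 5 (4273 UPM), and Ednrb in the Tgfbr2-KO pool, highest in cluster 12 (635 UPM). In the 14 Tgfbr2-KO cells of cluster 14, Cbr2 stood at 1032 UPM, with 164 of its 180 UMIs in 1 cell. Cluster 1 held 109 control and 253 Tgfbr2-KO cells, 5.75% and 9.46% of the pools, but 37.7% and 54.4% of the Folr2 UMIs, 57.0% and 70.3% of the Lyve1 UMIs and 48.0% and 66.7% of the Cd163 UMIs. Its leading genes Cd209f and Cd209g were on the list of other perivascular macrophage genes. Within it, Lyve1 stood at 304 UPM (271 to 339) in control and 165 UPM (149 to 182) in Tgfbr2-KO cells, 1.84-fold lower (1.58 to 2.14). Cd163 stood at 227 UPM (199 to 258) and 346 UPM (323 to 370), 1.52-fold higher (1.32 to 1.76). Ednrb stood at 327 and 218 UPM, 1.497-fold lower (1.30 to 1.72). Folr2 was 1.19-fold higher (1.10 to 1.29), at 788 and 937 UPM. F13a1 (1665 and 1700 UPM), Cbr2 (569 and 577 UPM) and Fcna (219 and 205 UPM) had ratios whose intervals include 1. Pf4 (3886 and 3712 UPM) and Selenop (3988 and 3813 UPM) had ratios of 0.955 and 0.956. Depth was alike here, at medians of 9305 and 9495 UMIs, and thinning left Lyve1 at 0.632 (0.487 to 0.823), Ednrb at 0.615 (0.485 to 0.781) and Cd163 at 1.43 (1.11 to 1.86).

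The median cell of cluster 1 held 6 Folr2 UMIs in the control and 8 in the Tgfbr2-KO pool, 1 and 0 of Lyve1, and 0 and 2 of Cd163. The upper quartile of Lyve1 was 4 and 2 UMIs, and that of Cd163 was 4 and 5. Unthinned, Lyve1 was found in 51.4% of control and 41.5% of Tgfbr2-KO cells of the cluster, Cd163 in 47.7% and 59.7%, and Folr2 in 96.3% and 95.7%. After thinning the shares were 33.3% (24.6 to 43.1) and 28.3% (22.8 to 34.4) for Lyve1, and 33.3% (24.6 to 43.1) and 43.7% (37.4 to 50.2) for Cd163. The intervals of each pair overlap, so a difference in the share of cells was not shown beyond counting error. For Folr2 the thinned shares were 78.7% (69.8 to 86.0) and 87.4% (82.7 to 91.3).

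Cluster 5 came next for most members and went lower in the Tgfbr2-KO pool for all but Cd163. Folr2 stood at 672 UPM in its 41 control cells and 386 UPM in its 313 Tgfbr2-KO cells, 1.74-fold lower (1.47 to 2.04). Lyve1 stood at 159 and 32.8 UPM, 4.86-fold lower (3.28 to 7.10). It had a UMI in 36.6% and 9.27% of cells unthinned, and in 27.0% and 5.63% after thinning. Cbr2 (512 and 273 UPM), F13a1 (953 and 474 UPM), Selenop (3021 and 2060 UPM), Pf4 (4273 and 3230 UPM) and Fcna (60.7 and 24.5 UPM) were lower too. Cd163 stood at 64.5 and 88.3 UPM, a ratio of 1.37 (0.836 to 2.39) that rests on 17 control UMIs. Ednrb had 5 and 14 UMIs. Median depth differed here, at 6394 and 7666 UMIs. Thinned, in 37 and 302 cells, the ratio was 0.760 (0.582 to 1.01) for Folr2 and 0.539 (0.199 to 1.82) for Fcna. Both intervals include 1, as does that of Ednrb. The thinned intervals of Lyve1, Cbr2, F13a1, Selenop and Pf4 stayed below 1, with Lyve1 at 0.245 (0.128 to 0.490). The thinned Cd163 ratio was 2.45 (1.02 to 7.71), from 5 control UMIs.

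Few Lyve1 UMIs lay in clusters 0, 4 and 9 of the Tgfbr2-KO pool. Cluster 0 held 77 Lyve1 UMIs in 371 control cells and 2 in 90 Tgfbr2-KO cells, 24.4 and 2.41 UPM. Cluster 4 (Fn1, Il6 and Pdpn) held 85 in 259 control cells and 2 in 46 Tgfbr2-KO cells, 25.9 and 2.81 UPM. Cluster 9 (Pde4c and C9) held 13 and 2. Among clusters with 20 or more cells of each pool, Lyve1 was highest in cluster 1, then in cluster 5, in both pools. Cluster 14, with 14 Tgfbr2-KO cells, held 20 Lyve1 UMIs there, 115 UPM (70.1 to 177), above cluster 5. Next in the control pool came cluster 12 at 51.9 UPM (28.4 to 87.1) from 14 UMIs, then clusters 4 and 0, and the intervals of these 3 overlap (20.7 to 32.0 and 19.3 to 30.5 UPM for the last). Folr2 was also highest in clusters 1 and 5, with intervals that overlap in the control pool (735 to 844 and 576 to 778 UPM) and do not in the Tgfbr2-KO pool (899.7 to 976 and 363 to 411 UPM). Cd163 was highest in cluster 1 in both pools and was higher in the Tgfbr2-KO pool in cluster 9 as well, at 19.8 and 66.6 UPM, 3.36-fold (1.93 to 6.11). It was lower in cluster 0, at 34.3 and 15.6 UPM, a ratio of 0.456 (0.235 to 0.814) that rests on 13 Tgfbr2-KO UMIs.

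**Figure D4:**
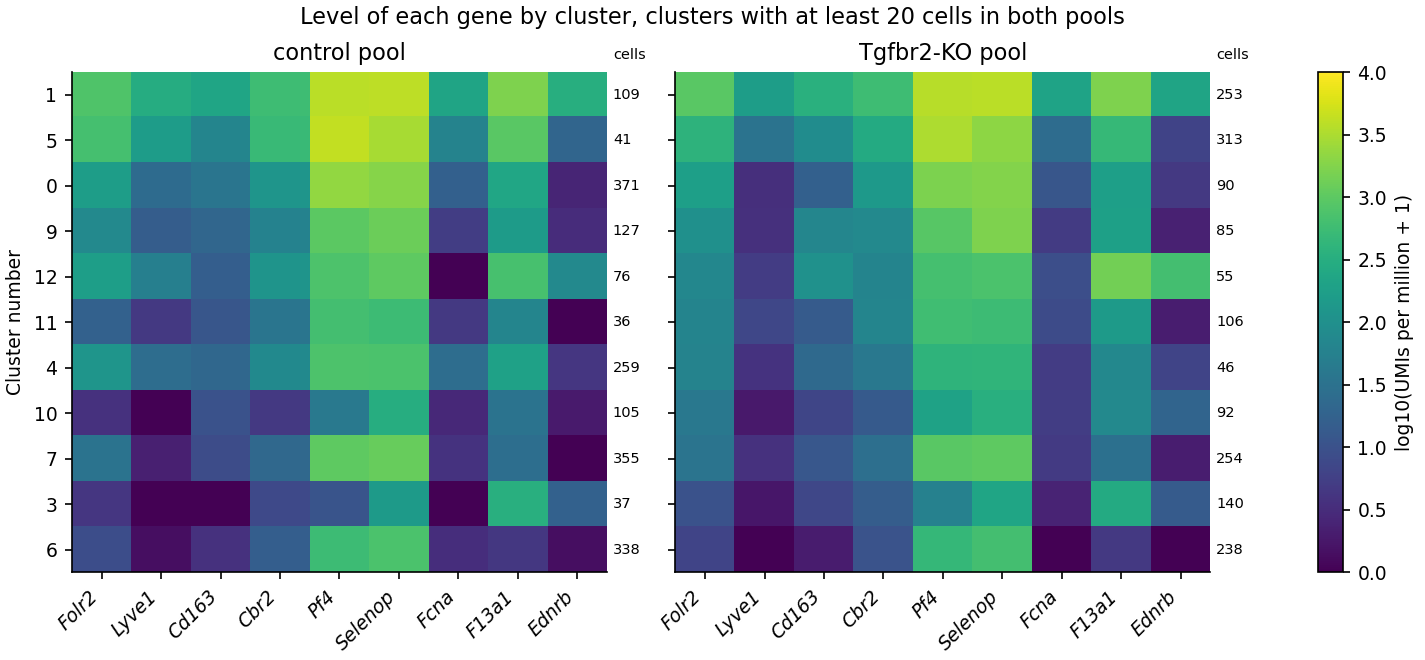
Level of each gene as log10 of UPM plus 1 (colour) in the 11 clusters with 20 or more cells of each pool, control on the left and Tgfbr2-KO on the right, ordered by Folr2 in the Tgfbr2-KO pool. Numbers beside the rows are cells. Clusters 1 and 5 lead for most genes, and Lyve1 is lower on the right in 7 of these clusters and higher in 4.

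Ednrb was the most concentrated member. In the control pool, 9 cells (0.475%) held at least 50% of its UMIs, and in the Tgfbr2-KO pool 16 cells (0.598%). Cluster 1 held 86.5% of its control and 63.3% of its Tgfbr2-KO UMIs. Cluster 12, of shallow cells with a median of 2975 UMIs, held 20 of its UMIs in 76 control cells and 153 in 55 Tgfbr2-KO cells, of which 116 lay in 1 cell. Without cluster 12 its log2 ratio in Mrc1-positive cells was 0.21 in place of 0.44, and without cluster 1 it was 2.04. At the other end, Selenop needed 14.7% and 12.5% of cells to hold that share, and Pf4 11.0% and 8.83%.

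Cells without Mrc1 held few UMIs of most members. After the filter 311 control cells and 717 Tgfbr2-KO cells were Mrc1-negative. Lyve1 had 2 and 20 UMIs in them, Cd163 5 and 13, Fcna 8 and 6, Ednrb 7 and 36, and Folr2 17 and 27. Pf4 and Selenop alone met the minimum, and both were called lower in the Tgfbr2-KO pool, where 19.5% of 1776 genes were called higher and 15.5% lower. Pf4 stood at 385 UPM (359 to 412) in control and 74.6 UPM (68.9 to 80.7) in Tgfbr2-KO cells, 5.16-fold lower (4.64 to 5.73). Selenop stood at 483 and 179 UPM, 2.69-fold lower (2.49 to 2.92). Neither call was left within clusters, where the ratios were 0.971 (0.867 to 1.09) and 0.849 (0.767 to 0.940). Different clusters made up these cells: clusters 6 (Nes, Mmp13 and Col14a1) and 7 (H2-M2, Cd207 and Ccl3) gave 20.6% and 26.4% of the control cells, while cluster 2 gave 46.9% of the Tgfbr2-KO cells. Cluster 2 held 79 of the 631 Pf4 UMIs of Mrc1-negative Tgfbr2-KO cells.

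A few cells supplied many of the members' UMIs in the Mrc1-negative cells. Cbr2 had 20 UMIs in control and 237 in Tgfbr2-KO cells, of which 180 lay in 2 cells of cluster 14, with 164 in 1 cell. Cluster 14 is led by Sftpc and Ccl21a, genes of alveolar epithelium and lymphatic vessels. Without it, Cbr2 stood at 9.46 UPM in control and 6.83 UPM in Tgfbr2-KO cells, so the direction turned. All 20 Lyve1 UMIs of Mrc1-negative Tgfbr2-KO cells lay in 3 cells of cluster 14, and 12 of the 36 Ednrb UMIs in 1. F13a1 stood at 53.8 and 37.7 UPM, of which cluster 3 held 81 of 114 UMIs in the control and 252 of 319 in the Tgfbr2-KO pool, led by S100a9, S100a8 and Hp. F13a1 is known to be made by classical monocytes as well. Its thinned share in C1q-low cells, 23.4% in control and 16.0% in Tgfbr2-KO cells, stood beside 23.0% and 28.7% in Mrc1-positive cells.

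Background from free RNA was examined for each share. Barcodes with at most 100 UMIs, 892716 in number, carried every member, from 24.7 UPM of Lyve1 to 1546 UPM of Pf4. The largest share of free RNA that the sums of 8003 genes with at least 20 free UMIs allowed was 0.119% in control and 0.379% in Tgfbr2-KO cells. Each limit was set by 1 gene, Iglc1 in control and Hbb-bs in Tgfbr2-KO cells. In Mrc1-negative control cells it was 0 (Gbp2b). Subtracting it left Folr2 at 133 and 139 UPM over all cells. So small a subtraction could hardly change a level, so these values do not measure the background. After thinning, Pf4 was found in 64.7% and 57.3% of Mrc1-positive cells, against 12.8% and 4.68% of C1q-low cells. Selenop was found in 81.4% and 77.5%, against 27.7% and 25.4%. Lyve1 was found in 4.79% and 5.11%, against 2.13% and 0.493%. Cbr2 was found in 15.4% and 20.5%, against 1.06% and 2.96%, and Fcna in 4.01% and 5.21%, against 1.06% and 0.493%. Ednrb was found in 2.59% of Mrc1-positive control cells, not above its share of 5.32% in C1q-low cells, and in 4.48% of Mrc1-positive Tgfbr2-KO cells, against 1.97%. The intervals of the shares compared overlap for Lyve1 (3.78 to 5.98 and 0.259 to 7.48) and Fcna (3.09 to 5.12 and 0.0269 to 5.79) in the control pool and for Ednrb in both. These shares were thus not told apart from those of C1q-low cells. C1q-low cells are no reference for F13a1, which monocytes make. Unthinned, Ednrb was found in 10.8% of control and 5.71% of Tgfbr2-KO cells of cluster 3 (S100a9, S100a8 and Hp). Its unthinned shares in C1q-low cells were 6.38% and 4.19%. Whether its share in C1q-low cells is background was not tested.

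The members shared cells. For each of the 36 pairs, thinned Mrc1-positive cells with both genes were counted beside the number that independent genes would give. All 36 pairs exceeded that number in both pools, with a median of 3.19 times in control cells (1.11 to 12.5) and 2.93 times in Tgfbr2-KO cells (1.18 to 8.35). Fcna and Ednrb shared 20 control cells where 1.61 would be had by independence, 12.5 times, and 37 Tgfbr2-KO cells where 4.43 would be, 8.35 times. Lyve1 and Ednrb stood at 11.5 and 8.06 times, Lyve1 and Fcna at 8.08 and 7.91 times, and Folr2 and Lyve1 at 4.36 and 3.62 times. Pf4 with Selenop stood lowest, at 1.11 and 1.18 times, both being found in most cells. Over all thinned cells, with and without Mrc1, the median was 3.58 times in control and 3.69 times in Tgfbr2-KO cells. Among all thinned cells, the median within cluster 1 was 1.04 times in control and 1.03 times in Tgfbr2-KO cells. Outside cluster 1, over the 32 pairs with at least 1 cell by independence, it was 1.68 and 3.24 times, again with Mrc1-negative cells included. In cluster 1, Pf4 and Selenop were each found in all 108 control and in 244 of 247 Tgfbr2-KO cells. Pairs with either gene could therefore hardly differ from 1 there. Values in cluster 1 ran from 0.947 to 1.87 in control and from 0.995 to 1.93 in Tgfbr2-KO cells, highest for Fcna and Ednrb. The pairs are of the same cells and library and are a description.

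**Figure D5:**
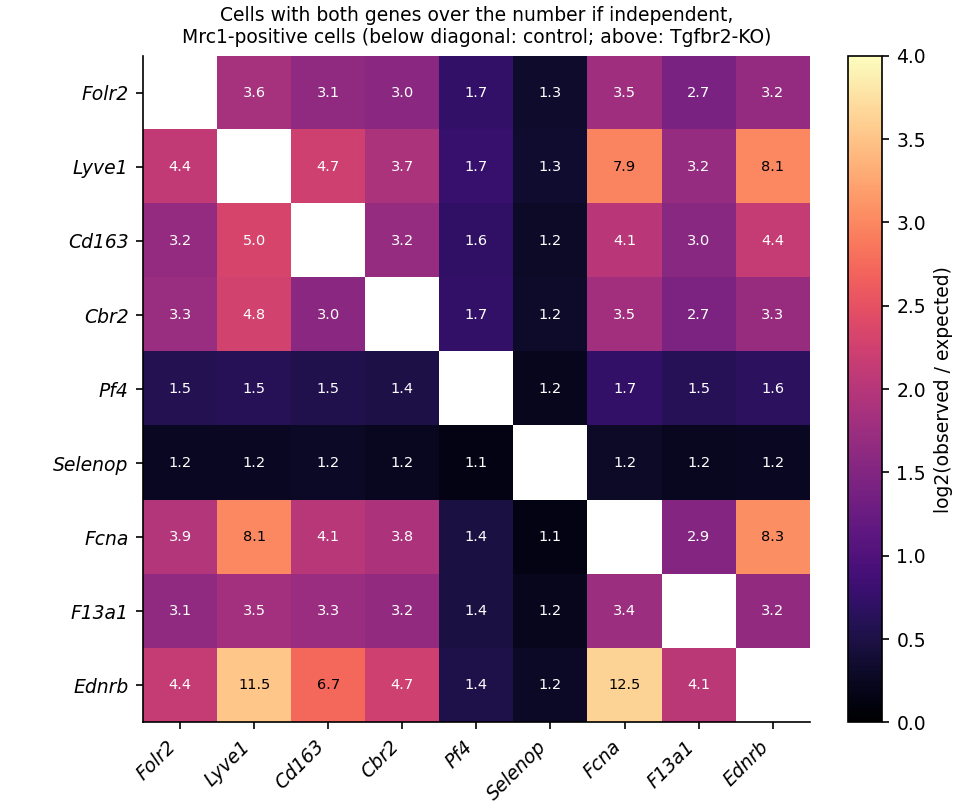
Number of thinned Mrc1-positive cells with both genes over the number under independence, for 36 pairs, below the diagonal in the control and above it in the Tgfbr2-KO pool; colour is log2 of that ratio. All values exceed 1, and the highest are among Lyve1, Fcna and Ednrb.

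Folr2 was found in more cells than the other receptors. Of thinned Mrc1-positive cells with Lyve1, 78.4% in the control and 87.6% in the Tgfbr2-KO pool also had Folr2, and of those with Cd163, 57.7% and 74.9%. Of cells with Folr2, 20.9% and 18.5% had Lyve1, and 21.6% and 31.1% had Cd163. All 3 together were found in 18 of 1545 control cells, 1.17% (0.692 to 1.83), and in 43 of 1899 Tgfbr2-KO cells, 2.26% (1.64 to 3.04). Unthinned the shares were 3.91% and 4.39%. None of 271 control and 692 Tgfbr2-KO cells without Mrc1 had UMIs of all 3, which allows shares of up to 1.35% and 0.532% of cells with such UMIs at this depth and does not limit the cells that express the genes. Setting aside Pf4 and Selenop, at least 3 of the other 7 members were found in 11.4% of control (9.85 to 13.1) and 17.5% of Tgfbr2-KO Mrc1-positive cells (15.8 to 19.3), against 0.369% and 0.145% of Mrc1-negative cells.

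The genes most like the members over single cells were Apoe, Serinc3, Fcrls, Maf, Itm2b, Mrc1, C1qc and Trf. Likeness was Pearson's r, over the cells of a pool, with the summed UMIs of the 9 members on a log scale, ranked by the lower pool among 1364 genes. It was 0.60 in the control and 0.61 in the Tgfbr2-KO pool for Apoe, the apolipoprotein E gene, 0.56 and 0.60 for the transcription factor Maf, and 0.54 and 0.75 for Mrc1. The cells share a library and depth, and Pf4 and Selenop supply most of the summed UMIs.

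Other genes known from perivascular macrophages, a list of 30, were split between the directions in Mrc1-positive cells. Of the 18 with enough UMIs 3 were called higher and 2 lower, where 7.95% and 7.24% of all genes were, with a median log2 ratio of -0.02 beside 0.03 over all counted genes. Clec10a, a galactose-type lectin, stood at 46.0 and 133 UPM, 2.89-fold higher (2.65 to 3.15). Cd209f, a C-type lectin that leads cluster 1, stood at 90.6 and 185 UPM, 2.04-fold higher (1.92 to 2.17). Mgl2, another lectin, was 1.67-fold higher (1.63 to 1.72), at 433 and 724 UPM. Stab1, the scavenger receptor stabilin-1, stood at 123 and 60.9 UPM, 2.03-fold lower, and Hpgd, which inactivates prostaglandins, at 119 and 72.5 UPM, 1.64-fold lower. Over all cells 3 of 17 were called higher and 6 lower, where 11.4% and 9.27% of all genes were, the latter including Igf1 (188 and 119 UPM), Cd36 (396 and 245 UPM), Dab2 (606 and 360 UPM) and the haem oxygenase gene Hmox1 (401 and 261 UPM). In Mrc1-negative cells 2 of 11 were called higher and 7 lower, where 19.5% and 15.5% of all genes were, with a median of -0.73 beside 0.13, among them Igf1 at 157 and 19.6 UPM, 8.01-fold lower.

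Genes that act with the members were counted in the same way in Mrc1-positive cells. Of 16 genes of folate, haemoglobin and iron handling, 6 had enough UMIs, 0 were called higher and 1 lower: Lrp1, an endocytic receptor that takes up haem-haemopexin, at 213 and 127 UPM. The ferritin genes Fth1 and Ftl1 had the most UMIs of this list, with ratios of 0.863 (0.858 to 0.868) and 0.914 (0.907 to 0.921). Among genes of coagulation and the complement lectin pathway, C3 (79.5 and 289 UPM) and Cfp (165 and 413 UPM) were called higher. Of 11 selenium genes 4 had enough, and Txnrd1, a selenium-containing reductase, was called lower, at 634 and 325 UPM. None of the 5 endothelin genes had enough. Edn2 and Edn3, ligands of Ednrb, had 0 UMIs in Mrc1-positive cells of either pool, and Edn1 had 37 and 84. Of 10 interferon response genes 6 had enough, and all 6 were called higher, with a median log2 ratio of 4.07 and summed levels of 158 and 2268 UPM. Their part in the members' differences was not tested beyond leaving out clusters 2 and 8.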

How the data were processed

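One 10x 3′ v3 RNA library and its hashtag library were used. The deposited matrix holds UMI counts per barcode, and was made with Cell Ranger 8.0.0 per the file headers; Cell Ranger 8.0, Seurat 5.1.0 and GRCm38 are named in the submitters' processing notes. The deposited hashtag table gives each called cell an assignment with its probabilities as fractions and its log10 values. Of 4887 called cells, 1933 were assigned to B0301 and 2738 to B0303; 96 multiplets, 54 blanks and 66 unassigned cells were left out, which was the treatment of doublets. Kept cells had a minimum of 1000 UMIs and 500 genes and a maximum mitochondrial share of 10%. Counts were summed per pool. Ratios have exact conditional binomial intervals, levels exact Poisson intervals and shares exact Clopper-Pearson intervals, all 95% and for counting error only. With 1 pool per genotype no test across mice exists, since single mice were not tagged. Ratios within clusters are Mantel-Haenszel ratios. Clusters used 2000 variable genes, 30 principal components, 15 neighbours and resolution 0.8, without the members and Mrc1. The calculations were checked on simulated data. The members and lists were chosen with earlier results of these data known. All members were named, with up to 6 called genes per direction of the other perivascular list, up to 3 genes with the most UMIs of each other list, and the first 8 genes by likeness; called genes of the other lists were named after their values were seen. One gene of the coagulation list is not reported here. The 13 other settings chosen at the start and 6 added after seeing the data (the ratios within clusters, and leaving out clusters 1, 12, 14 or the 10 cells with most UMIs) are given in the closing section. Promoter windows and gene positions came from RefSeq tables (GRCm38.p6). Tools were Python 3.11.15, numpy 2.4.6, scipy 1.17.1, pandas 2.3.3, scanpy 1.11.5, igraph 0.11.9 and matplotlib 3.10.9.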

Additional observations from a re-analysis of the deposited data

Results flagged for a closer look

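Folr2 and F13a1 differed between the pools in opposite directions in cells with and without Mrc1. The log2 ratio of Tgfbr2-KO over control for Folr2 was 0.33 in Mrc1-positive and -1.33 in Mrc1-negative cells, the latter from 17 and 27 UMIs. For F13a1 it was 0.26 and -0.51, the latter from 114 and 319 UMIs that lay mostly in cluster 3. These differences between the kinds of cell were not tested, since there is 1 pool per genotype. Without clusters 2 and 8 the log2 ratios in Mrc1-negative cells were 0.012 for Folr2 and 0.86 for F13a1, so both directions turned, and without the 10 cells of each pool with most UMIs that of F13a1 was 0.44. Within clusters the ratios in Mrc1-negative cells were 1.58 (0.851 to 2.92) for Folr2 and 0.745 (0.592 to 0.939) for F13a1.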

How the results depend on the processing

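Over all cells 0 members were called higher and 0 lower in the Tgfbr2-KO pool, in Mrc1-positive cells 0 and 0, and in Mrc1-negative cells 0 and 2. Thinning to 3000 UMIs, and likewise a mean over cells, gave 2 higher in Mrc1-positive cells (Folr2 and F13a1). With no minimum for a call, 1 was lower over all cells (Lyve1), 1 higher (Cd163) and 1 lower (Lyve1) in Mrc1-positive cells, and 2 higher and 5 lower in Mrc1-negative cells. The shares of all genes were worked out without the UPM minimum only, among genes that met the minimum of summed UMIs. Of these genes, 7.53% were called lower over all cells. In Mrc1-positive cells 9.46% were called higher and 5.67% lower, and in Mrc1-negative cells 18% and 11%. In Mrc1-negative cells Folr2, Lyve1, Cd163, Fcna and Ednrb did not meet the UMI minimum, so the members' counts there cannot be set beside these shares. Of the members that met it there, Cbr2 was higher, and Pf4 and Selenop were lower. Without clusters 2 and 8, 3 were higher over all cells, 3 in Mrc1-positive cells (Folr2, Cbr2 and F13a1) and 1 in Mrc1-negative cells. With thinning, a mean over cells or clusters left out, the share of all genes called was not worked out. Whether the members' counts under those settings are unusual is therefore not known. Within clusters, thinned or not, 0 were lower in Mrc1-negative cells, and the Pf4 log2 ratio there turned to 0.032 when thinned. Without cluster 1, 1 was lower over all cells (Pf4, -0.75). These counts stayed within 1.5 times with no or a stricter cell filter, an assignment probability of at least 0.99, trimmed-mean scaling, free RNA subtracted, a 2-fold threshold, other Mrc1 cut-offs, and without clusters 12 or 14 or the 10 cells with most UMIs. The causes were not tested. No paired analysis was possible because each genotype is 1 pool. Depth limits Lyve1, Cd163, Fcna and Ednrb in Mrc1-negative cells, where 3 UMIs stand for 1.42 UPM in the control and 0.355 UPM in the Tgfbr2-KO pool.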

Other observations

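Cells with several members at once give a view that no single gene gives. All 9 members were found together in 5 of 1545 thinned Mrc1-positive control cells (0.324%) and in 15 of 1899 Tgfbr2-KO cells (0.790%). Ednrb, the endothelin receptor, was found in 34.9% of control and 34.8% of Tgfbr2-KO cells of cluster 1, or 30.6% (22.1 to 40.2) and 26.7% (21.3 to 32.7) after thinning, beside levels there of 327 and 218 UPM. In cluster 12, Cd163 had 4 UMIs in the control and 25 in the Tgfbr2-KO pool, and F13a1 stood at 693 and 1394 UPM.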
